A study of Mus musculus with 4 samples.

Results

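The genes described here are 7 of the 50600 in the deposited tables: Ms4a4b, Ms4a4c, Ms4a6b, Ms4a6c and Ms4a6d of the MS4A (membrane-spanning 4A) family and Tmem176a and Tmem176b of the related TMEM176 pair. They were found by their gene symbols in mouse GENCODE, and were chosen by their counts and TPM (a level corrected for gene length and library size) in the 4 libraries, as related genes that move in opposite directions between them. Those values are therefore a description with no test. Protein-coding genes whose symbol begins with Ms4a or Tmem176 number 21 in all, 19 of them Ms4a genes.

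The RNA came from mouse Th17 cells, the helper T cells named for their cytokine interleukin 17 (IL-17). The 4 libraries are biological replicates 1 to 4 of 1 group of primary C57BL/6NJ cells, with no treated or control arm, and the labels link a protocol for CD4 T cell differentiation in culture. The file headers give a time of 72 hr, while sex and age are not given and all 4 biosamples carry 1 donor identifier. The labels do not say whether the biosamples came from separate animals, so p-values here measure only the spread between these samples, which may be technical.

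MS4A and TMEM176 proteins cross the membrane 4 times. The family includes CD20 (Ms4a1) on B cells and the beta chain of the high-affinity IgE receptor (Ms4a2) on mast cells and basophils, which work beside other surface receptors and help set their signalling. MS4A4B is known from mouse T cells, where it has been linked to activation and proliferation, and several other MS4A proteins are best known from monocytes and macrophages. TMEM176A and TMEM176B are ion channel-like proteins of intracellular vesicles, described in dendritic cells and in IL-17-producing lymphocytes.

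The Ms4a genes lie in 1 cluster on chromosome 19 and the Tmem176 genes on chromosome 6, on mm10 (GRCm38). Ms4a4c (ENSMUSG00000024675.19) spans bases 11404770 to 11427246, Ms4a4b (ENSMUSG00000056290.15) bases 11443553 to 11463549, Ms4a6c (ENSMUSG00000079419.4) bases 11469366 to 11482192 and Ms4a6b (ENSMUSG00000024677.13) bases 11516512 to 11531256, all on the plus strand. Ms4a6d (ENSMUSG00000024679.10) spans bases 11586604 to 11604849 on the minus strand. Tmem176b (ENSMUSG00000029810.15, bases 48833818 to 48841496, minus strand) and Tmem176a (ENSMUSG00000023367.14, bases 48840919 to 48847071, plus strand) overlap at their 5′ ends and are read away from each other. The counts were made by strand, so reads from the overlap can be told apart. RefSeq lists 3 starts for Tmem176b and 2 for Tmem176a. The outermost Tmem176b start and the first Tmem176a start face each other with 108 bases between them, all within an annotated exon of Tmem176b.

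The coding sequences fall into groups of unequal likeness. Ms4a4b and Ms4a4c share 91.8% of aligned coding bases. Ms4a6b shares 85.3% with Ms4a6c and 81.3% with Ms4a6d, and Ms4a6c and Ms4a6d share 79.1%. Between those groups, and between Tmem176a and Tmem176b (59.4%), identity was 57.6% to 65.7%. Of the 50-base windows in annotated transcripts, 2.40% for Ms4a4b, 8.19% for Ms4a4c, 3.57% for Ms4a6b, 10.5% for Ms4a6c and 2.54% for Ms4a6d also occur in a transcript of another gene, and none for Tmem176a and Tmem176b. How many reads matched more than 1 copy is not known. In this respect only, the counts of the Ms4a4 and Ms4a6 genes are less certain than those of the Tmem176 genes. Tmem176a and Tmem176b had the fewest counts of the members in replicate 2, at 21 and 36.

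The promoters of Ms4a4b and Ms4a4c, and those of Ms4a6b and Ms4a6c, could also be aligned, while Ms4a6d was not compared. The stretches before the start, from RefSeq on GRCm38.p6, are shown because the members of a pair can be compared base by base with their levels below. Each runs 5′ to 3′ on the plus strand from 250 bases before the RefSeq start. It ends before that start or before the first base of an annotated exon on the way. The annotated spans of Ms4a4c and Ms4a6b begin further upstream, at bases 11404770 and 11516512, so their stretches lie inside the genes as annotated. Capitals mark runs of at least 10 bases identical within the pair.
Ms4a4b (chr19:11443308-11443552): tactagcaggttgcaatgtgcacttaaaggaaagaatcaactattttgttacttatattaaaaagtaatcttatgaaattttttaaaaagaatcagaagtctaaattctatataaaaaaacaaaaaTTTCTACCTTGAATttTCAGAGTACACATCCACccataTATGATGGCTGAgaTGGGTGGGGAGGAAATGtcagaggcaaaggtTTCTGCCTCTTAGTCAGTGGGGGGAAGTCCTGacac
Ms4a4c (chr19:11407411-11407660): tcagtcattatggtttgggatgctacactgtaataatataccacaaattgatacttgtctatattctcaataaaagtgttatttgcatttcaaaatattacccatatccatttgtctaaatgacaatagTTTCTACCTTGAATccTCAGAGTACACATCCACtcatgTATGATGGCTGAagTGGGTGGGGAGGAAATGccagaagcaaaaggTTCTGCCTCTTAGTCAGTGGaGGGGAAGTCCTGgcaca
Ms4a6b (chr19:11518309-11518452): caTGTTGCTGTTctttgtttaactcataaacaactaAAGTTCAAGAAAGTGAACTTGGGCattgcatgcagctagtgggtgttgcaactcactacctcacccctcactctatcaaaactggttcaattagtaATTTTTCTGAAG
Ms4a6c (chr19:11469118-11469365): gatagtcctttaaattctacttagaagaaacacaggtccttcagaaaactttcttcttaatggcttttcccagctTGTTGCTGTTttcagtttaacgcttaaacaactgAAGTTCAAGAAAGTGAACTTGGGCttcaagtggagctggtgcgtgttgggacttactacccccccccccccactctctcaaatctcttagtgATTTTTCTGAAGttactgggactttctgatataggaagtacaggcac

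The Ms4a4b and Ms4a4c stretches were identical at 78.8% of 231 aligned bases, with 6 such runs of up to 20 bases. The last runs stand side by side in the capitals of Ms4a4b, because the base that parts them is present only in Ms4a4c. The Ms4a6b and Ms4a6c stretches were identical at 81.9% of 138 aligned bases, with 3 runs, the longest of 24 bases. Between a stretch of the first pair and one of the second, the same alignment gave 58.7% to 64.3% identical bases. It held no run of at least 10 bases there. RefSeq windows of 300 bases (250 before to 50 after a start) matched 6 of the 7 members, all but Ms4a6d. The nuclear receptor half-site AGGTCA, on either strand, was in none of these 9 windows and in 16.3% of 32851 windows of all genes. The interferon-stimulated response element pattern was likewise in none of the 9, and in 3.44% of all. No match says only that these letters are not in these windows. The letters GAAAGTGAAC, which differ from that pattern at 1 of the letters it fixes and lie within the 24-base run above, were picked after the sequences were seen. They occur in 34 of the 32851 windows (0.104%, either strand), among them those of Ms4a6b and Ms4a6c, where they begin 206 and 133 bases before the start. A match is a description of the letters, not a binding site.

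Total counts were 33123029 to 37746767 per library, and each library had a count for 19572 to 20355 genes. A count of 3, the limit that a count of 0 allows, was 0.0795 to 0.0906 CPM, for counting error only. The cells carried the genes that define their label: Il17f, Il17a and Cd4 had means of 2216 ± 1098, 1846 ± 911 and 500.5 ± 16.2 TPM (SD, n = 4). Replicate 2 stood apart from the rest. A chi-square of counts per degree of freedom was 44.6 to 49.4 for its pairs and 4.44 to 6.61 for the other pairs, and Il17f stood at 578 TPM there against 2908, 2756 and 2619 TPM in replicates 1, 3 and 4. Compared with the remaining libraries in edgeR (quasi-likelihood), it had 3907 of 17337 genes called at a Benjamini-Hochberg adjusted p under 0.05 (22.5%), 2024 higher and 1883 lower. The same test called 0 genes in replicate 1, 3 or 4 (166, 257 and 128 at an unadjusted p under 0.05, and 2, 15 and 3 by DESeq2). Each such test sets 1 library against 3, compares libraries and not conditions, and takes the single library to vary as much as the rest.

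The family was led by Ms4a6b, a T cell-expressed MS4A gene, at 134 ± 9.56 TPM (SD, n = 4). Next came Ms4a4b at 27.8 ± 26.4 TPM, then Ms4a6d at 8.55 ± 2.25, Tmem176b at 8.04 ± 4.50, Ms4a6c at 6.41 ± 4.46, Ms4a4c at 5.80 ± 5.38 and Tmem176a at 4.18 ± 2.49 TPM. Only Ms4a6b stood clear of its neighbour in that order by more than their spread over all 4 libraries. The 5 from Ms4a6d down differed from one another by less than their SDs together. Of the 7 members 6 had at least 1 TPM in each library, Tmem176a being the exception, against 49.5% of 21764 protein-coding genes.

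**Figure D1:**
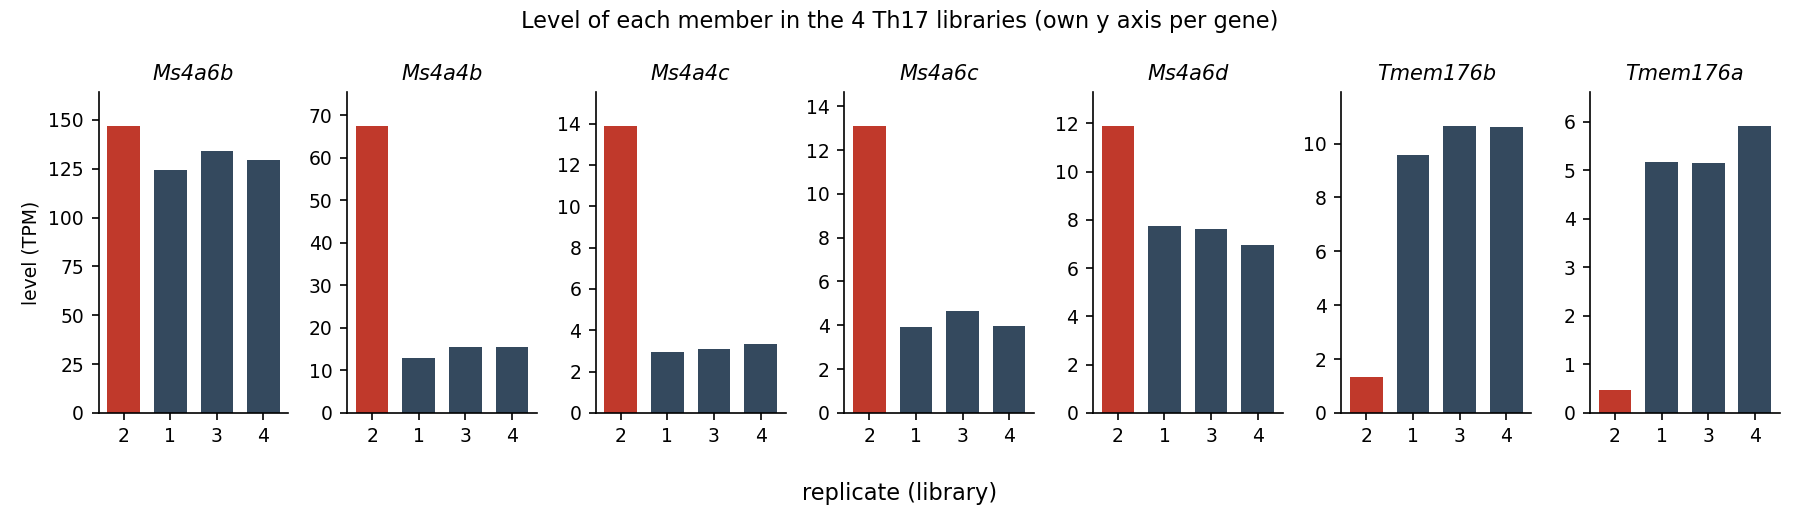
Level of each member in TPM, 1 panel per gene with its own axis from 0, in replicate 2 (red) and in replicates 1, 3 and 4 (dark). The 5 Ms4a genes were highest in replicate 2, by little for Ms4a6b, and both Tmem176 genes were lowest there.

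Without replicate 2 the order changed and the spread was small. In replicates 1, 3 and 4 Ms4a6b had 129 ± 4.91, Ms4a4b 14.6 ± 1.48, Tmem176b 10.3 ± 0.606, Ms4a6d 7.44 ± 0.426, Tmem176a 5.41 ± 0.434, Ms4a6c 4.18 ± 0.399 and Ms4a4c 3.12 ± 0.188 TPM (SD, n = 3). In this order each gene lay further from the next than their SDs together. The coefficient of variation over these 3 libraries ran from 3.79% for Ms4a6b to 10.2% for Ms4a4b. Tmem176b and Tmem176a, the third and the fifth here, took the last places in replicate 2.

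Ms4a4b, the T cell gene of the first pair, was far higher in replicate 2. It had 4067 counts and 67.3 TPM in replicate 2, against 674, 857 and 914 counts and 12.9, 15.5 and 15.5 TPM in replicates 1, 3 and 4. The fitted log2 change, replicate 2 over the others, was 2.26 ± 0.08 (SE). Its close copy Ms4a4c, better known from monocytes, had 278 counts and 13.9 TPM in replicate 2, against 51, 57 and 65 counts and 2.94, 3.10 and 3.32 TPM in replicates 1, 3 and 4, a log2 change of 2.21 ± 0.21. The pair therefore kept nearly the same proportion in each library: Ms4a4b stood at 4.86 times the TPM of Ms4a4c in replicate 2, and at 4.39, 4.99 and 4.67 times in replicates 1, 3 and 4.

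The other pair with matching promoter runs did not move by the same amount. Ms4a6c, a gene of monocytes, had 307 counts and 13.1 TPM in replicate 2, against 80, 100 and 91 counts and 3.94, 4.64 and 3.96 TPM in replicates 1, 3 and 4, a log2 change of 1.70 ± 0.19. Ms4a6b had 7530 counts and 147 TPM in replicate 2, against 5524, 6322 and 6495 counts and 124, 134 and 129 TPM in replicates 1, 3 and 4, a log2 change of 0.24 ± 0.05. Its TPM in replicate 2 was above the other 3, at 1.13 times their mean. Ms4a6d, known from macrophages, lay between them, with 236 counts and 11.9 TPM in replicate 2, against 133, 139 and 135 counts and 7.74, 7.62 and 6.95 TPM in replicates 1, 3 and 4, a log2 change of 0.74 ± 0.18. For all 5 genes the value in replicate 2 did not overlap those of the other libraries, as for 28.2% of the genes tested in that direction.

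**Figure D2:**
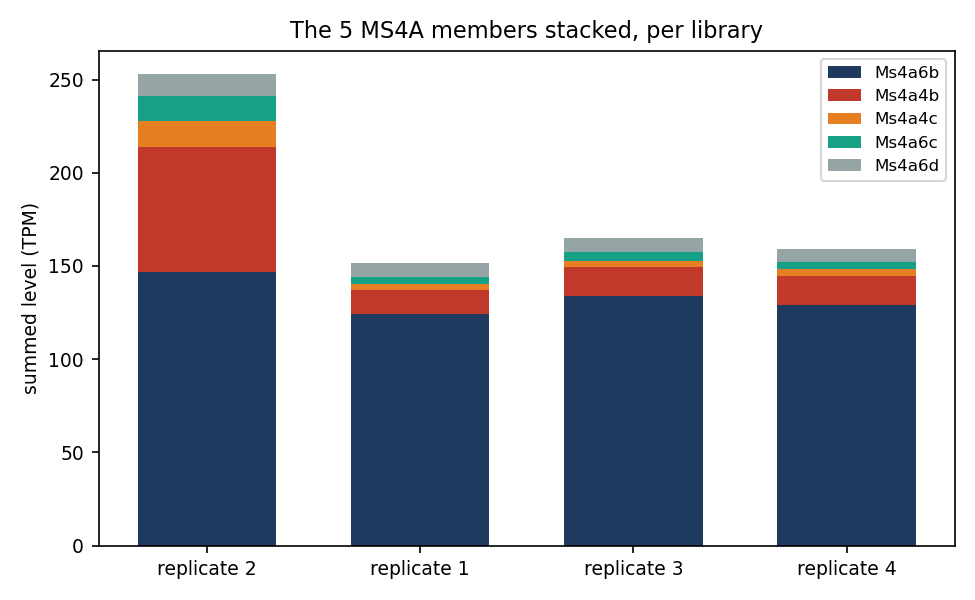
Summed TPM of the 5 MS4A members in each library, stacked by gene. The sum was 253 TPM in replicate 2, against 152, 165 and 159 TPM in replicates 1, 3 and 4, and the segment of Ms4a4b differs most.

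The make-up of the family's RNA therefore differed by library. Ms4a6b held 58.0% of the summed TPM of the 5 members in replicate 2, against 81.9%, 81.3% and 81.3% in replicates 1, 3 and 4. Ms4a4b held 26.6% in replicate 2, against 8.50%, 9.37% and 9.73%. The summed level of the 5 was 253 TPM in replicate 2, against 152, 165 and 159 TPM.

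Both Tmem176 genes were lower in replicate 2. Tmem176b had 36 counts and 1.33 TPM in replicate 2 (exact 95% Poisson interval 0.929 to 1.84 TPM), against 225, 265 and 282 counts and 9.58, 10.6 and 10.6 TPM in replicates 1, 3 and 4. Its log2 change was −2.89 ± 0.23. Tmem176a had 21 counts and 0.481 TPM in replicate 2 (interval 0.298 to 0.736 TPM), against 195, 206 and 252 counts and 5.17, 5.15 and 5.91 TPM, a log2 change of −3.42 ± 0.27. The groups do not overlap for either gene, as for 43.2% of the genes tested in that direction, and the intervals cover counting error only.

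The ratio of Tmem176a to Tmem176b in TPM was 0.363 in replicate 2, against 0.539, 0.484 and 0.556 in replicates 1, 3 and 4. With 21 and 36 counts behind it, the value of replicate 2 is the least precise of the 4. Across the 2 families the contrast was wider: Ms4a4b stood at 50.8 times the TPM of Tmem176b in replicate 2, and at 1.35, 1.45 and 1.46 times in replicates 1, 3 and 4. In bulk RNA, fewer cells of a type and less RNA per cell cannot be told apart.

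**Figure D3:**
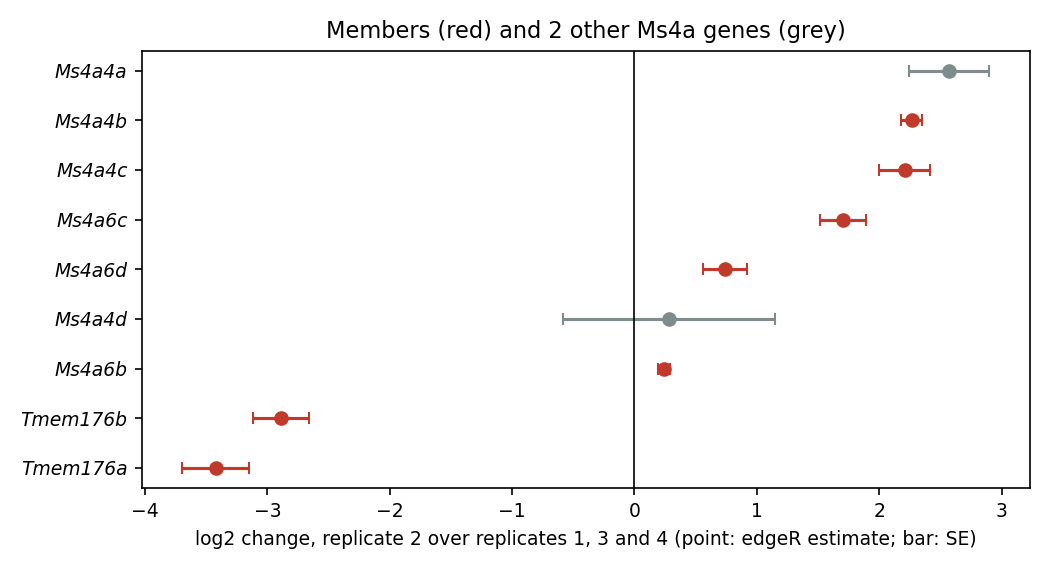
Log2 change of replicate 2 over replicates 1, 3 and 4 for the 7 members (red) and for Ms4a4a and Ms4a4d (grey), with the edgeR estimate as a point and its SE as a bar. The values run from 2.57 for Ms4a4a to −3.42 for Tmem176a, and Ms4a6b sits at 0.24.

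The remaining 14 Ms4a genes, listed by symbol and not by how they moved, were mostly silent. No count was found in any library for 8 of them, among them Ms4a2, the IgE receptor chain, and Ms4a3, a gene of granulocyte and monocyte progenitors. Ms4a1, which encodes CD20, had 4 counts in replicate 2 and 0 in each other library, and Ms4a7, a macrophage gene, had 1 count in replicate 2, against 0, 0 and 2 in replicates 1, 3 and 4. Ms4a10 and Ms4a8a had at most 4 counts in a library.

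Ms4a4a, the macrophage MS4A gene next to Ms4a4c, was the 1 gene of the 14 with at least 1 TPM in each library. It had 139 counts and 14.5 TPM in replicate 2, against 25, 17 and 25 counts and 3.02, 1.94 and 2.67 TPM in replicates 1, 3 and 4. It was higher in replicate 2 by a log2 change of 2.57 ± 0.33 (adjusted p = 5.19e-06 over all genes, edgeR with Benjamini-Hochberg adjustment). Ms4a4d, with 12 counts in replicate 2 against 10, 15 and 3, had a log2 change of 0.28 ± 0.87 and no call (adjusted p = 0.871). Of the 14 genes 2 had enough counts to be tested, 1 of which was higher and 0 lower, where 11.7% of all genes tested were higher and 10.9% lower.

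In chromosome order the log2 changes in replicate 2 were 2.57 for Ms4a4a, 2.21 for Ms4a4c, 2.26 for Ms4a4b and 1.70 for Ms4a6c, and then 0.24 for Ms4a6b, 0.28 for Ms4a4d and 0.74 for Ms4a6d. The values above 1 thus belong to adjacent family members. Gm8369, which lies between Ms4a6c and Ms4a6b, had 28.8 TPM in replicate 2, against 32.4, 34.6 and 32.5 TPM, a log2 change of −0.14 ± 0.07 with no call (edgeR, Benjamini-Hochberg adjusted p = 0.175). It was named after its value was seen. Ms4a4b shares 14 of its 50-base windows with Gm8369.

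Genes around the loci were counted the same way, to be read beside the shares of all genes tested given above for each direction. Genes outside the family are here those whose symbol does not begin with Ms4a, Gm8369 among them. Within 500 kb of a member on chromosome 19, 6 of 23 protein-coding genes outside the family had enough counts to be tested, of which 2 were higher and 1 lower in replicate 2, with a median log2 change of 0.10. Mrpl16, a mitochondrial ribosomal protein gene, was higher at 0.25 ± 0.06, and Osbp, which encodes an oxysterol-binding protein, was lower at −0.22 ± 0.05. Stx3, a membrane fusion gene, was higher at 1.20 ± 0.26, with 2.17 TPM in replicate 2 against 0.990, 0.917 and 1.05 TPM. These 3 were named after their values were seen.

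On chromosome 6, 22 of 29 neighbours were tested, with 6 higher, 2 lower and a median of 0.06. All 8 Gimap genes near the Tmem176 pair, which encode GTPases linked to lymphocyte survival, were among them, with 4 higher and 1 lower. Gimap3, the nearest at 70.1 kb, had 267 TPM in replicate 2, against 243, 241 and 250.4 TPM in replicates 1, 3 and 4, a log2 change of 0.19 ± 0.05 in the direction opposite to the Tmem176 genes (adjusted p = 0.00618, edgeR with Benjamini-Hochberg adjustment). Gimap6 and Gimap7 were higher at 0.86 ± 0.05 and 0.97 ± 0.13. No neighbour outside the Ms4a family with at least 5 TPM on average was called with a log2 change of 1 or more in size. The Gimap genes were named after their values were seen.

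**Figure D4:**
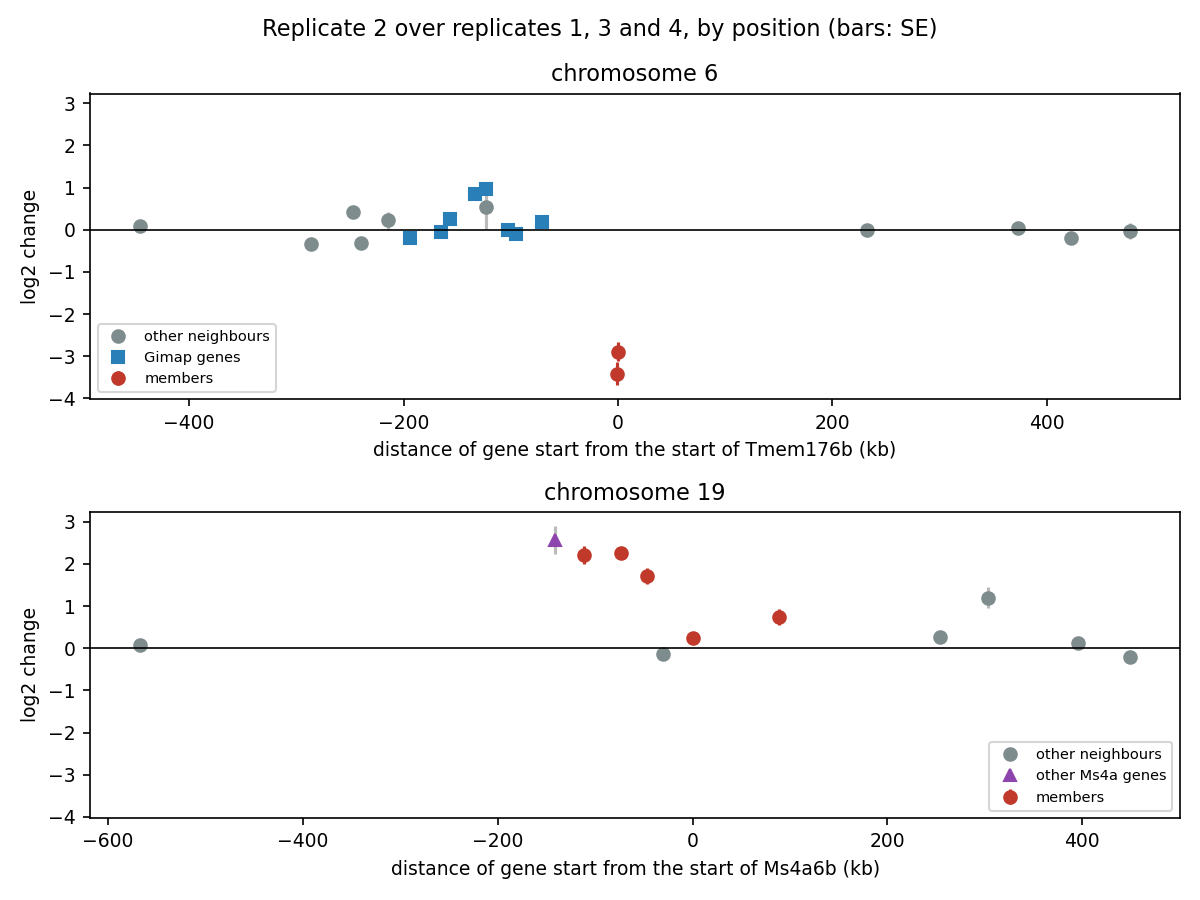
Log2 change of replicate 2 over replicates 1, 3 and 4, with SE bars, for the members and for tested protein-coding neighbours of at least 1 TPM on average, by distance of the gene start from the start of Tmem176b (top) or Ms4a6b (bottom). The Tmem176 genes lie below −2 while the Gimap genes beside them lie between −0.20 and 0.97, and the Ms4a genes with a change above 1 are adjacent to one another among those plotted.

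Markers of the other cells in which these families are known were set beside them. Of 12 monocyte and macrophage genes, 0 were higher and 1 lower (Adgre1, at −0.54 ± 0.15) of 9 tested, with a median log2 change of −0.32. Their summed level was 24.8 TPM in replicate 2 and 21.6 to 23.3 TPM in replicates 1, 3 and 4. The list was led by Cd68, Adgre1 and Cd14 at 12.1, 5.73 and 5.17 TPM in replicate 2 (4-library means 9.46, 7.96 and 3.86 TPM), and 3 genes had 1 TPM in each library. Lyz2 had 0 counts in all 4 libraries, and Csf1r had 1 in replicate 2 against 1, 13 and 0. Of 8 dendritic cell genes 1 was higher, Flt3 at 3.58 ± 0.17, and 1 lower, Batf3 at −0.64 ± 0.16. Their sum was 28.4 TPM in replicate 2 against 24.6 to 30.9 TPM, while Clec9a, Siglech and Cd209a had 0 counts throughout. Only 5 of these 8 genes had enough counts to be tested.

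Of 10 B cell genes 0 were called, with a median of 0.67. Their sum was 110.3 TPM in replicate 2 and 106 to 115 TPM in the others, nearly all of it Ighm and Ebf1 at 64.2 ± 5.37 and 42.5 ± 2.17 TPM, and Cd79b followed at 1.23 ± 0.41 TPM. Of 8 mast cell and basophil genes 1 was higher, Kit at 1.35 ± 0.18, with a sum of 4.34 TPM in replicate 2 and 2.32 to 2.86 TPM in the others. Fcer1a, Cpa3, Mcpt4, Mcpt8 and Tpsb2 had 0 counts throughout. Of 7 natural killer cell genes 1 was lower (Klre1, with 0 counts in replicate 2 against 17, 8 and 11) and 0 higher, with a sum of 2.81 TPM in replicate 2 and 3.06 to 4.85 TPM in the others, and Ncr1 had 0 counts. Of 7 CD8 T cell genes Eomes was higher at 3.10 ± 0.11, and Cd8b1 and Prf1 were lower at −0.47 ± 0.11 and −1.74 ± 0.29. That list summed to 97.2 TPM in replicate 2 and 55.7 to 64.9 TPM in the others, and Klrg1 had 0 counts. The higher sum rests on Eomes, with 61.8 TPM in replicate 2, against 8.65, 6.53 and 7.48 TPM in replicates 1, 3 and 4. Cd8a, named after its value was seen, had 1 count in replicate 2, against 0, 3 and 2. Genes with enough counts to be tested were 3 of the 8 for mast cells and basophils. They were 4 of the 7 for natural killer cells and 4 of the 7 for CD8 T cells. The part of the Flt3, Kit and Eomes differences in the Ms4a values was not tested.

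T cell state genes moved with replicate 2 as well. Of 12 Th17 lineage genes 6 were lower and 0 higher, with a median log2 change of −0.63 and a sum of 1581 TPM in replicate 2 against 5620 to 6370 TPM. Il22, the third of that list by level, had 183 TPM in replicate 2, against 385, 374 and 304 TPM, and no call. Of 10 naive and central memory T cell genes 5 were higher and 2 lower, with a median of 0.24 and a sum of 2146 TPM against 1409 to 1426 TPM. Tcf7, Ccr7 and Satb1, which lead that list, were higher at 0.85 ± 0.04, 1.03 ± 0.05 and 0.30 ± 0.04.

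Of 14 genes of the type I interferon response 2 were higher and 6 lower, with a median of −1.03, and their sum was 362 TPM in replicate 2 and 333 to 357 TPM in the others. Bst2, a virus-tethering protein gene, was higher at 0.27 ± 0.06, and Zbp1, a nucleic acid sensor gene, was lower at −0.66 ± 0.10. Usp18 was the other gene called higher, by far more than Bst2, and was named after its value was seen. It had 29.96 TPM in replicate 2, against 3.26, 1.77 and 1.76 TPM in replicates 1, 3 and 4. These values are part of the sums just given. Of 14 pan-T cell genes 2 were higher and 2 lower, with a median of −0.01. Of 10 activation genes 4 were higher, Il2 among them at 0.16 ± 0.04, and 5 lower, among them Tnfrsf4 at −0.28 ± 0.05 and Il2ra at −0.53 ± 0.04. Calls for all these lists are from the edgeR fit over all genes, where the median log2 change was −0.01. They are to be read, out of the genes tested in each list, beside the shares of all genes tested, given above with the other Ms4a genes.

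The genes with the pattern most like Tmem176b were sought by the root mean square difference of log2(TPM + 0.1), each gene centred on its own mean over the 4 libraries, over 10217 genes with a mean of 5 TPM or more. The closest were Stra6, a receptor for retinol-binding protein (0.09), the potassium channel gene Kcnk10 (0.10), the transcription factor gene Irf8 (0.11), the protease inhibitor gene Serpina3g (0.12) and the chemokine receptor gene Cxcr4 (0.14). Stra6 had 9.22 TPM in replicate 2, against 63.6, 62.5 and 74.7 TPM in replicates 1, 3 and 4. Irf8 had 3.95 TPM in replicate 2, against 27.6, 25.9 and 26.4 TPM. Tmem176a, under 5 TPM on average, was not ranked.

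For Ms4a4b the most like were Il1r2, which encodes a decoy receptor for interleukin 1 (0.02), the cytoskeletal gene Ermn (0.07), Ms4a4c (0.07), Ccdc80, a matrix protein gene (0.08), and the chemokine gene Ccl4 (0.11). Il1r2 had 340 TPM in replicate 2, against 63.4, 75.0 and 76.9 TPM in replicates 1, 3 and 4. Ms4a6c was the 24th in that order at 0.27, Ms4a6d the 191st at 0.68 and Ms4a6b the 1410th at 0.88, while Tmem176b was the 10190th at 2.19. These ranks describe 4 libraries, in which 1 library sets most of each pattern.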

How the data were processed

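The deposited values are raw counts of fragments per gene, 1 table per library, which the authors made with featureCounts 1.4.6-p4 (strand option 2, both ends mapped, GENCODE M13), per the file headers. The deposited tables also give each gene's summed exon length in bases. The labels give mm10 as the build; no version of the aligner is given in the sources used here. They name total RNA while the title of the linked library protocol names poly(A)+ RNA. Symbols came from GENCODE M21, matched without the version (50376 of 50600 identifiers).

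Counts were divided by length and scaled to TPM within each library. Genes with at least 10 counts over the 4 libraries entered edgeR 4.0.16 (TMM, quasi-likelihood, R 4.3.3), each library against the other 3, with Benjamini-Hochberg adjustment over 17337 genes and a threshold of 0.05. Each SE was taken as the size of the log2 change divided by the root of its F statistic. DESeq2 1.42.0, other size factors and filters, and leaving out libraries were alternatives. The fit was also run on simulated data, in which all 4 libraries had the spread of replicates 1, 3 and 4. Such data cannot show how the test behaves where the single library varies more than the rest. Sequences came from RefSeq (GRCm38.p6) and GENCODE M21 transcripts, aligned with Biopython 1.88. Protein sequences were not used here. No pair of libraries was identical.

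Named genes are the members, other Ms4a genes of at least 0.5 TPM on average, neighbours of at least 5 TPM called in replicate 2 with a log2 change of at least 1, the 5 genes most like Tmem176b and Ms4a4b, and the 3 highest genes of each list with list members at 0; 1 result under this rule is not reported here. The members and lists were chosen with earlier results of these data known.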

Additional observations from a re-analysis of the deposited data

Results flagged for a closer look

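In 51 named genes the 4 libraries were searched for 1 that stood far from the rest, as the gap to its nearest neighbour over the whole range of TPM (Dixon's 95% limit for 4 libraries). Chance flags about 1 in 20 such groups. It was met by 23 genes, each time with replicate 2 as the far library. The members and the genes of like pattern were chosen from these same values, so their ratios are a description with no test. Replicate 2 lay above the others for Ms4a4b (0.953), Ms4a4c (0.966), Ms4a6c (0.923) and Ms4a6d (0.840), and for the related Ms4a4a (0.914). It lay below them for Tmem176a (0.860) and Tmem176b (0.887).

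Among the genes of like pattern replicate 2 lay below for Irf8 (0.928) and Cxcr4 (0.901), and above for Il1r2 (0.951), Ermn (0.955), Ccdc80 (0.965) and Ccl4 (0.996). Among list genes it lay below for Il17f (0.876), Trac (0.922), Adgre1 (0.850), Prf1 (0.843), Zbp1 (0.844) and Il2ra (0.956), and above for Tcf7 (0.936), Ccr7 (0.952), Flt3 (0.958) and Eomes (0.962).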

How the results depend on the processing

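The member changes in replicate 2 moved by less than their SE in 49 of 49 alternative values, from 2.18 to 2.30 for Ms4a4b, 0.22 to 0.27 for Ms4a6b and −3.46 to −3.36 for Tmem176a. The member changes of replicates 1, 3 and 4, each set against a group that holds replicate 2, rest on that library. They ran from −1.38 to 0.70 with all libraries and from −0.25 to 0.24 without replicate 2, where 10 of 21 turned sign. Ms4a4b in replicate 3 had 0.13 without it, against −1.08 with it, and Ms4a4c in replicate 4 had 0.12, against −1.05. The mean TPM of Ms4a4b was 14.6 without replicate 2, against 27.8 with it. Between 2864 (DESeq2) and 4341 genes were called in replicate 2, and 3959 to 4341 with another library left out. For replicate 1, 0 genes were called with all libraries, 0 to 68 with 1 left out (68 without replicate 2) and 2 by DESeq2. For replicate 3 there were 0, then 0 to 108 (108 without replicate 2, 2 without replicate 4), 15 by DESeq2 and 17 with no filter on counts. For replicate 4 there were 0, then 0 to 9 (9 without replicate 2, 2 without replicate 3) and 3 by DESeq2. The cause was not tested. With a pseudocount of 1 the 5 genes most like Tmem176b held 2 of the 5 given, and those most like Ms4a4b held 3. No paired analysis was possible because the 4 libraries form 1 group. Depth limits Tmem176a and Tmem176b in replicate 2, with 21 and 36 counts.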
